A study of Homo sapiens with 6 samples.

Results

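The globin genes code for the protein chains of hemoglobin, and all 10 annotated genes of the human loci were taken by name from the 62252 genes to which the deposited transcripts were summed. The alpha locus on chromosome 16 holds HBZ, HBM, HBA2, HBA1 and HBQ1, and the beta locus on chromosome 11 holds HBE1, HBG2, HBG1, HBD and HBB. They were measured in polyA RNA of K562, a human leukemia cell line with erythroid features. Every library came from K562 cells that had been given a lox-flanked blasticidin cassette at the AAVS1 site with Cas9 and expanded from a single clone. Recombinase-mediated exchange had then placed Flag-tagged PCBP1 in them behind a tet-inducible promoter with puromycin resistance. The resulting stable line was polyclonal and was kept under puromycin. The 3 libraries labelled Control were from cells without doxycycline (−Dox), and the 3 labelled PCBP1 OE were from cells given Dox (+Dox). Doxycycline and Flag-PCBP1 cannot be told apart in this comparison. The labels do not say whether the replicates were separate cultures, so p-values measure the spread between these libraries, which may be technical. In bulk RNA, fewer cells that express a globin gene and less globin mRNA per cell cannot be told apart.

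Hemoglobin is built from a pair of alpha-type and a pair of beta-type chains, each of which carries heme. During development the genes of each locus are used in turn: HBZ (zeta) and HBE1 (epsilon) in the embryo, HBG1 and HBG2 (gamma) in the fetus, HBB (beta) and a little HBD (delta) after birth, and HBA1 and HBA2 (alpha) from the embryo onward. Red cell precursors keep globin mRNA stable for days, and the poly C binding proteins, PCBP1 among them, are known to bind a C-rich stretch in the 3′ UTR of alpha-globin mRNA.

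Because that stretch is the known contact of this protein family, the 30 bases with the most C in the 3′ UTR are shown for the 6 globin mRNAs that were most abundant in these libraries. Sequences are from GRCh38, written 5′ to 3′ in the sense of the mRNA, and capitals mark every run of 3 or more C.
HBA1 (chr16:177449-177478, plus strand): cctCCCCCCagCCCCtcctCCCCttcctgc
HBA2 (chr16:173650-173679, plus strand): CCCtcctCCCCtccttgcaccggCCCttcc
HBZ (chr16:154415-154444, plus strand): aCCCCCaggacaggctgcggCCCCtCCCCC
HBE1 (chr11:5268416-5268445, minus strand): tcctgtgaCCCtgacaCCCtccttctgcac
HBG1 (chr11:5248329-5248358, minus strand): gctcactgCCCatgattcagagctttcaag
HBG2 (chr11:5253247-5253276, minus strand): gctcactgCCCatgatgcagagctttcaag
The windows hold 21 C in HBA1, 19 in HBA2, 17 in HBZ, 14 in HBE1 and 9 in each of HBG1 and HBG2. Among 540 genes whose leading coding transcript reached 1 TPM and had a 3′ UTR of 80 to 150 bases, the median window held 11 C. At least 21 C were found in 0.741% of these genes, at least 19 in 3.89%, at least 17 in 11.3%, at least 14 in 29.1% and at least 9 in 70.2%. These counts describe the letters of the windows and do not show binding.

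The copies differ little, which limits how reads can be assigned. The coding sequences of HBA1 and HBA2 were identical over 426 of 426 bases, and their 3′ UTRs over 82.3% of aligned bases. HBG1 and HBG2 were identical over 439 of 441 coding bases and over 96.7% of their 3′ UTRs. Values of single copies are therefore uncertain, and the copies are also given as sums.

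The induction was examined first. PCBP1 was at 247.4, 269.4 and 266.7 CPM (counts scaled to library size with TMM factors) in −Dox replicates 1, 2 and 3, and at 1029, 936 and 1037 CPM in +Dox replicates 1, 2 and 3. All +Dox libraries were above all −Dox libraries, as the labels state, and the log2 fold change was 1.94 (SE, standard error, 0.055, adjusted p = 5.22e-10 in edgeR's quasi-likelihood test). The total estimated counts were 84177316, 80104627 and 74766040 in −Dox and 70905656, 82263502 and 82449808 in +Dox.

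Embryonic and fetal globins made up nearly all beta-type mRNA, and adult alpha-globin most alpha-type mRNA. In TPM (an abundance scaled for transcript length, so that genes can be compared), the beta locus summed to 19850 ± 462 in −Dox and 19270 ± 276 in +Dox (SD, n = 3 each), and the alpha locus to 2302 ± 105 and 2180 ± 101. All 10 genes together held 2.22%, 2.27% and 2.16% of TPM in the −Dox libraries and 2.17%, 2.16% and 2.10% in the +Dox libraries. The level of the beta locus was 8.39 to 8.76 times that of the alpha locus in −Dox and 8.55 to 9.14 times in +Dox, and these ranges overlapped.

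The order of levels was the same in both groups. HBG2 came first at 9789 ± 149 TPM in −Dox, followed by HBG1 at 6253 ± 173, HBE1 at 3799 ± 161, HBA1 at 1404 ± 68.5, HBA2 at 605.9 ± 27.9, HBZ at 229.3 ± 11, HBQ1 at 63.2 ± 4.29 and HBD at 13.1 ± 0.637 TPM (SD, n = 3). No neighbours in this order overlapped in the −Dox libraries. HBG2 ranked between 8 and 10 among all genes by TPM in the 6 libraries. HBB, the adult beta chain, had 2, 0 and 0 counts in −Dox and 2, 14 and 1 counts in +Dox, and HBM, the mu chain of the alpha locus, had 0, 1 and 3 counts in −Dox and 0, 0 and 1 in +Dox. Neither passed the filter of a mean count above 10, so no fold change is given. A count of 0 allows up to 3 counts in a library, or 0.0354 to 0.0423 CPM, and such limits cover counting error only.

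**Figure D1:**
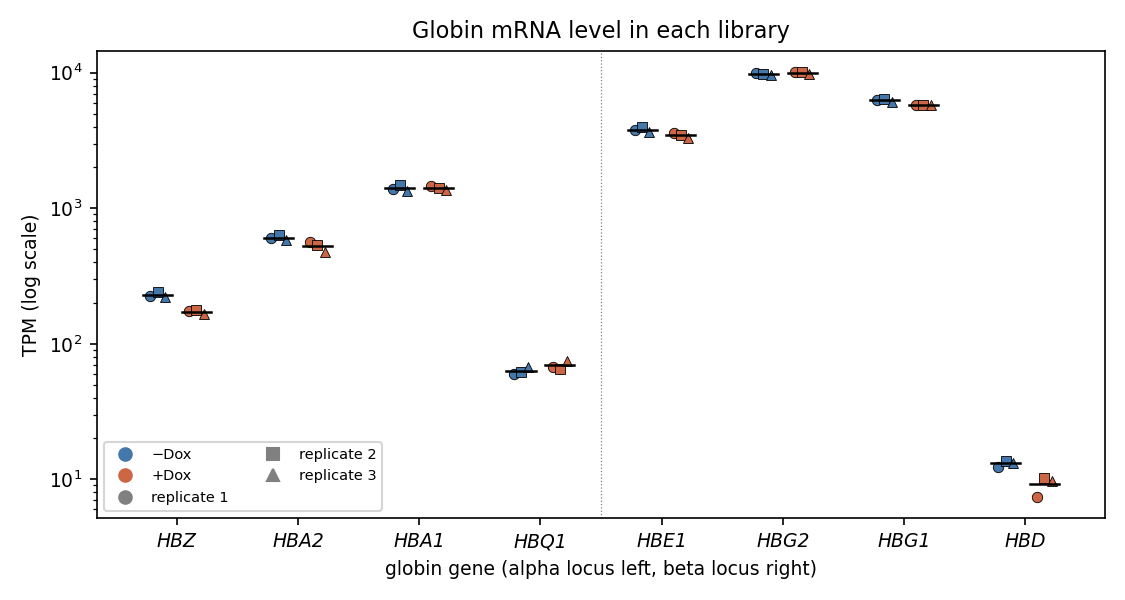
TPM on a log axis of the 8 globin genes that passed the filter, with 3 −Dox (blue) and 3 +Dox (orange) libraries per gene and the group mean as a bar. The levels run from about 13.1 TPM for HBD to 9789 TPM for HBG2 in −Dox, and every +Dox point lies below every −Dox point for HBZ, HBA2, HBE1, HBG1 and HBD.

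The comparison of +Dox with −Dox asks which globin mRNAs changed when PCBP1 was overexpressed. HBZ and the counts assigned to HBD were lower in +Dox, and no globin gene was higher. The summed gamma and alpha copies did not pass the test in either direction. The HBD counts rest mainly on HBD-204, a transcript that begins beside the pseudogene HBBP1, upstream of the start of HBD-201. Of the 8 genes tested, 2 had an adjusted p under 0.05, both lower, and none was a DEG (differentially expressed gene) at an absolute log2 fold change above 1. Over all 21045 genes tested, 15.8% passed the adjusted p (8.16% higher and 7.68% lower), and 1.46% were DEGs. The median log2 fold change was −0.13 over the 8 tested globin genes and 0.006 over all genes tested.

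HBZ codes for the embryonic zeta chain and lies on GRCh38 at chr16:142728-154503 (ENSG00000130656.6, plus strand). Its level was 129.1, 159.2 and 136.6 CPM in −Dox replicates 1, 2 and 3 and 113.7, 103.9 and 104.3 CPM in +Dox replicates 1, 2 and 3. Every +Dox library was below every −Dox library, a separation seen in 33.2% of all genes tested, and with +Dox on the lower side in 15.8% of all genes tested. The means were 141.7 ± 15.7 and 107.3 ± 5.54 CPM (SD, n = 3), and the log2 fold change was −0.40 (SE 0.071, adjusted p = 0.00213 in edgeR), a fold of 0.757. In TPM, HBZ fell from 229.3 ± 11 to 172.5 ± 6.21 (SD, n = 3). Its main transcript HBZ-201 held at least 99.9% of its TPM in each library.

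HBA2 and HBA1 code for the same alpha chain and lie at chr16:172876-173710 (ENSG00000188536.13) and chr16:176680-177522 (ENSG00000206172.8). HBA2 was at 195.5, 241.8 and 202.5 CPM in −Dox and 207.1, 174.8 and 167.3 CPM in +Dox. The groups overlapped in +Dox replicate 1, and the log2 fold change of −0.22 (SE 0.086, adjusted p = 0.107 in edgeR) did not pass the test. It passed without −Dox replicate 1 (adjusted p = 0.0425 in edgeR), without +Dox replicate 1 (adjusted p = 0.0287) and with genes of any count in the fit (adjusted p = 6.89e-04), and over all alternatives the adjusted p lay between 6.89e-04 and 0.366. With genes of any count, the SE was 0.054 for HBA2 and 0.053 for HBA1, against 0.086 and 0.080 in the main fit. The p-values of that fit may therefore understate the spread of single genes between libraries. HBA1 was at 458.6, 575.6 and 477.2 CPM in −Dox and 550.3, 473.6 and 489.0 CPM in +Dox. These values overlapped throughout, with a log2 fold change of 0.001 (95% interval −0.17 to 0.17, adjusted p = 0.994 in edgeR).

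Summed, HBA1 and HBA2 were at 717.1 ± 87.8 (−Dox) and 687.4 ± 60.8 CPM (+Dox) (SD, n = 3). The log2 fold change was −0.06 (95% interval −0.24 to 0.11, adjusted p = 0.685 in edgeR). HBQ1, which codes for the theta chain, lies at chr16:180459-181179 and was at 16.3, 20.7 and 20.4 CPM in −Dox and 21.3, 17.9 and 21.8 CPM in +Dox. Its groups overlapped and its log2 fold change was 0.09 (SE 0.098, adjusted p = 0.602 in edgeR).

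On the beta locus, HBE1 codes for the embryonic epsilon chain and is annotated at chr11:5268345-5505652 (ENSG00000213931.7, minus strand). It was at 1511, 1795 and 1543 CPM in −Dox and 1578, 1402 and 1441 CPM in +Dox. +Dox replicate 1 lay within the −Dox range, and the log2 fold change of −0.13 (SE 0.067, adjusted p = 0.211 in edgeR) did not pass. HBG1, at chr11:5248269-5249857 (ENSG00000213934.9), was at 2180, 2523 and 2216 CPM in −Dox and 2223, 1979 and 2155 CPM in +Dox. Its groups overlapped and its log2 fold change was −0.12 (SE 0.062, adjusted p = 0.219 in edgeR). HBG2, annotated at chr11:5253188-5505605 (ENSG00000196565.15), was at 3392, 3860 and 3484 CPM in −Dox and 3807, 3448 and 3599 CPM in +Dox. Its groups overlapped throughout and its log2 fold change was 0.02 (SE 0.056, adjusted p = 0.899 in edgeR).

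HBG1 and HBG2 summed to 5885 ± 436 CPM in −Dox and 5737 ± 302 CPM in +Dox (SD, n = 3), with a log2 fold change of −0.04 (95% interval −0.16 to 0.09, adjusted p = 0.742 in edgeR). The annotated read-through gene ENSG00000284931 (chr11:5248270-5254783) holds exons of both gamma genes, which cover 51.25% of the exon bases of HBG2 and 14.86% of those of HBG1. It took 51553 to 63489 counts per library, 730.3 ± 73.2 CPM in −Dox and 758.6 ± 46.3 CPM in +Dox (SD, n = 3). Reads within the shared bases do not separate it from the gamma genes, and with its counts added to the sum the log2 fold change was −0.03 (adjusted p = 0.825 in edgeR).

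HBD codes for the delta chain and is annotated at chr11:5232678-5243657 (ENSG00000223609.11, minus strand). It had 572, 588 and 559 counts in −Dox and 306, 475 and 434 counts in +Dox, or 6.76, 7.55 and 7.48 CPM against 4.31, 5.61 and 5.34 CPM. The groups did not overlap, and the log2 fold change was −0.51 (SE 0.117, adjusted p = 0.0103 in edgeR). With offsets for transcript length the log2 fold change was −0.49 (SE 0.141, adjusted p = 0.0598 in edgeR). The call was lost, while the fold change stayed about as large. HBD-201, which begins at 5234483 within the annotated span and runs to the annotated 3′ end of HBD, was listed at 0 in all 6 libraries. HBD-205, which begins at the same base, was given 19.1% of the TPM of HBD in −Dox replicate 2 and 21.9% in +Dox replicate 3, and 0 in the other libraries. HBD-204 held 83.1%, 61.4% and 82.0% of the TPM of HBD in −Dox and 78.3%, 84.2% and 66.1% in +Dox, and this transcript begins at 5243657, beside the pseudogene HBBP1. The level of HBD-204 was 10.3, 8.39 and 10.9 TPM in −Dox and 5.83, 8.67 and 6.44 TPM in +Dox, which overlapped. No test was run on the TPM of single HBD transcripts. Whether the counts assigned to HBD come from delta-globin mRNA cannot be told from the transcript estimates.

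The neighbours that share exon bases with HBD were lower too. HBBP1, an untranslated beta-like pseudogene, was at 3.44 ± 0.554 (−Dox) and 2.20 ± 0.243 CPM (+Dox) (SD, n = 3), with a log2 fold change of −0.64 (SE 0.166, adjusted p = 0.0186 in edgeR). The lncRNA ENSG00000290652 overlaps 99.09% of the HBBP1 exon bases and showed a log2 fold change of −0.47 (adjusted p = 0.0163 in edgeR). The calls of HBBP1 and of this lncRNA are therefore not separate measurements. HBBP1 shares 88 and the lncRNA 84 of the 1152 exon bases of HBD (7.64% and 7.29%), and the part of these bases in the HBD call was not tested. Both calls were lost without −Dox replicate 2 (adjusted p = 0.0931 for HBBP1 and 0.0711 for ENSG00000290652 in edgeR), without +Dox replicate 3 (0.0825 and 0.0596) and with the length offset (0.0667 and 0.057), and that of ENSG00000290652 also without +Dox replicate 2 (0.0524). With the length offset the log2 fold changes were −0.555 for HBBP1 and −0.469 for ENSG00000290652. BGLT3, a noncoding RNA between HBBP1 and HBG1, was at 12.4 and 12.2 CPM (log2 fold change −0.04, adjusted p = 0.839 in edgeR). Of the other noncoding entries of the loci, the zeta pseudogene HBZP1 had 99 counts in −Dox replicate 3 and at most 9 elsewhere, and HBAP1 had none.

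Locus totals did not pass the test in either direction. The alpha locus was at 877.9 ± 105 (−Dox) and 815.0 ± 67.4 CPM (+Dox) (log2 fold change −0.11, 95% interval −0.28 to 0.06, adjusted p = 0.414 in edgeR). The beta locus was at 7508 ± 592 and 7216 ± 389 CPM (log2 fold change −0.06, 95% interval −0.19 to 0.07, adjusted p = 0.589 in edgeR). Summed over all 10 genes, the level was 7889, 9182 and 8088 CPM in −Dox and 8504, 7604 and 7983 CPM in +Dox, which overlapped, and the log2 fold change was −0.06 (95% interval −0.19 to 0.07, adjusted p = 0.561 in edgeR). With 1 library left out, the alpha total ranged from −0.18 (+Dox replicate 1 omitted) to −0.01 (−Dox replicate 2 omitted).

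**Figure D2:**
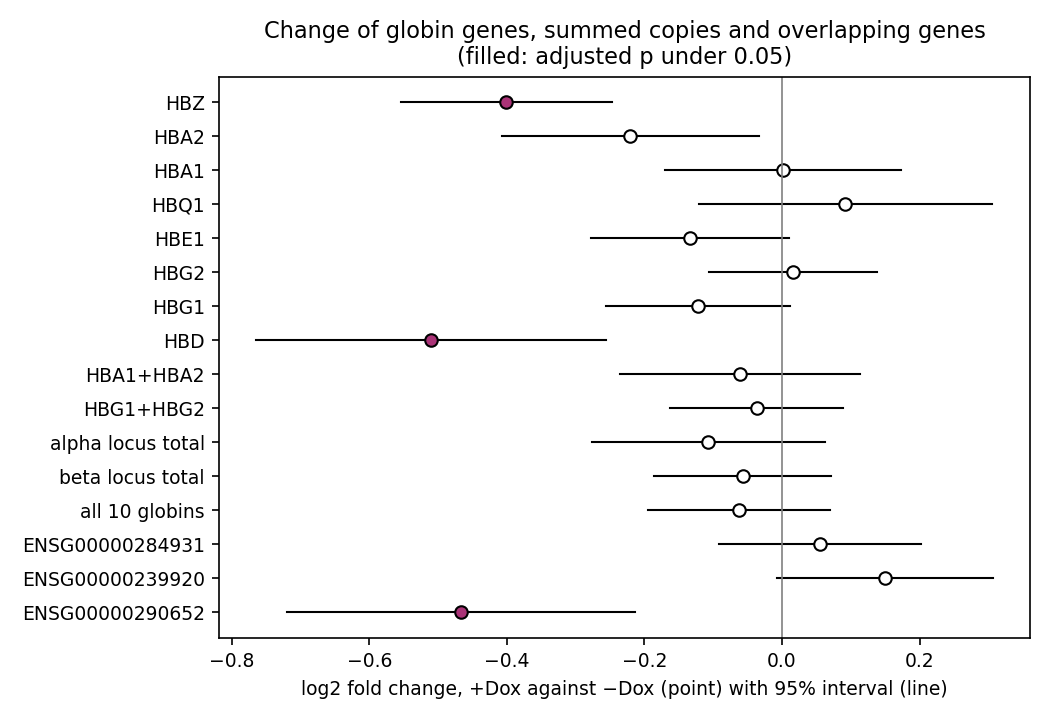
Log2 fold change of +Dox against −Dox with its 95% interval for the 8 tested globin genes, the summed copies, the totals and 3 annotated genes that share exons with globins. HBZ (−0.40), HBD (−0.51) and ENSG00000290652 (−0.47) are filled because their adjusted p was under 0.05, and the intervals of all sums cross 0.

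The composition within each locus was compared by shares of TPM, which do not depend on the scaling between libraries. HBZ made up 9.81%, 10.0% and 10.0% of alpha-locus TPM in −Dox and 7.71%, 8.07% and 7.98% in +Dox, a difference of −2.04 percentage points with no overlap (exact permutation test, two-sided, p = 0.1). An exact permutation test of 3 libraries against 3 goes no lower than p = 0.1, so no share can pass 0.05. HBA1 and HBA2 together were at 87.3 ± 0.367% of that locus in −Dox and 88.9 ± 0.430% in +Dox (difference 1.62 points, 2.64 with estimated counts, exact permutation p = 0.1), and HBQ1 was at 2.75 ± 0.278% and 3.18 ± 0.338% (exact permutation p = 0.3).

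Within the beta locus, HBE1 was at 18.9%, 19.6% and 18.9% of TPM in −Dox and 18.3%, 18.0% and 17.5% in +Dox, again without overlap (difference −1.19 points, exact permutation p = 0.1). The fetal pair HBG1 and HBG2 was at 80.8 ± 0.429% in −Dox and 82.0 ± 0.403% in +Dox (exact permutation p = 0.1), and HBD with HBB at 0.0662% and 0.0485% (exact permutation p = 0.1). The embryonic genes thus took a smaller part of both loci in each +Dox library than in any −Dox library. The log2 ratio of alpha-locus to beta-locus TPM was −3.11 ± 0.0352 in −Dox and −3.15 ± 0.0480 in +Dox, and overlapped (SD, n = 3, exact permutation p = 0.4).

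The shares of the paired copies were compared in the same way. HBA2 held 30.2%, 30.1% and 30.2% of HBA1 and HBA2 TPM in −Dox and 27.7%, 27.4% and 25.9% in +Dox (difference −3.14 points, exact permutation p = 0.1). HBG2 held 61.1%, 60.7% and 61.3% of the gamma TPM in −Dox and 63.4%, 63.8% and 62.7% in +Dox (difference 2.26 points, exact permutation p = 0.1). Neither pair of groups overlapped. The differences kept their sign with estimated counts in place of TPM, with the main transcript alone and with each library left out, and ranged from −3.48 to −2.59 points for HBA2 and from 2.03 to 2.54 points for HBG2. Salmon divides the reads that fit both copies by its model, and the part of that step in these shares was not tested.

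**Figure D3:**
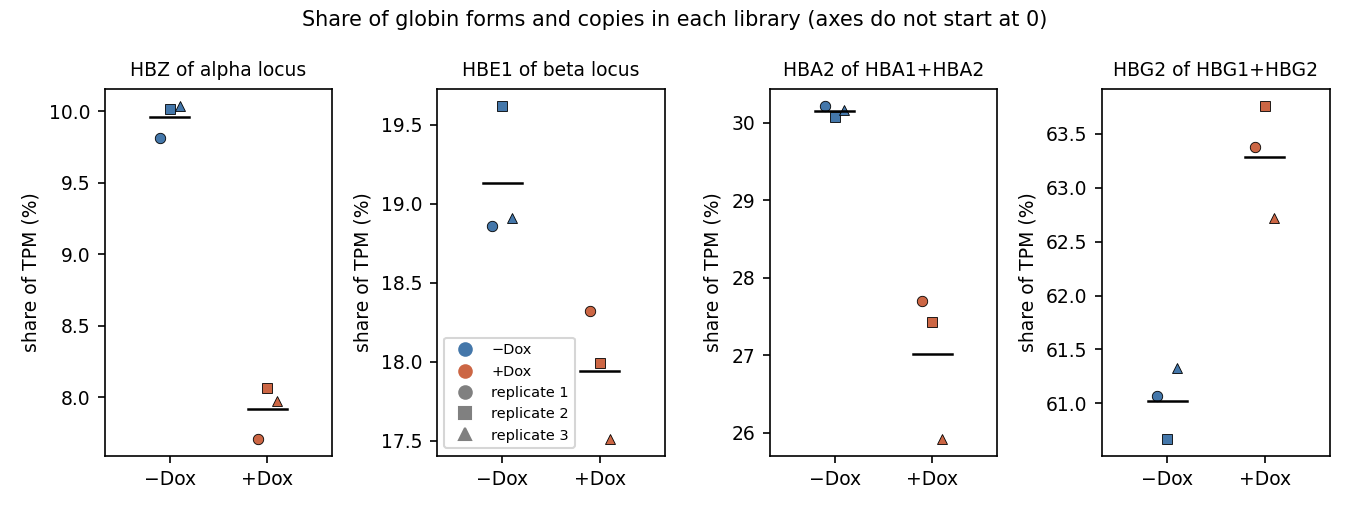
Share of TPM in each −Dox (blue) and +Dox (orange) library for HBZ within the alpha locus, HBE1 within the beta locus, HBA2 within the alpha copies and HBG2 within the gamma copies, with group means as bars on axes that do not start at 0. The groups are apart in all 4 panels, lower in +Dox for the first 3 and higher for HBG2.

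HBE1 and HBG2 carry annotated transcripts that begin far upstream, near 5505652, in the region of the olfactory receptor genes. For HBE1, the upstream-starting HBE1-201 and HBE1-202 held 5.16%, 4.86% and 5.21% of its TPM in −Dox and 5.66%, 6.04% and 6.42% in +Dox, without overlap. The proximal transcript HBE1-203 was at 94.9 ± 0.190% and 94.0 ± 0.381% (SD, n = 3, exact permutation p = 0.1), a difference of −0.96 points that was −1.74 points with estimated counts in place of TPM. For HBG2, the transcript that begins at the gene itself, HBG2-201, held 99.7% in both groups (exact permutation p = 0.4). ENSG00000239920, an annotated gene whose exons cover 81.27% of the HBE1 exon bases, had 2540 to 3135 counts and a log2 fold change of 0.15 (adjusted p = 0.196 in edgeR).

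The level in CPM and in TPM treated −Dox replicate 2 differently. In CPM it was the highest −Dox library for 8 of 8 tested globins, and in TPM for 6 of 8. The effective length, which Salmon derives from the fragment lengths of each library and by which TPM is scaled, was 313.2, 342.2 and 326.3 bases for HBG2 in −Dox and 323.4, 308.9 and 310.6 bases in +Dox. −Dox replicate 2 thus had the longest effective length of HBG2 as well as the highest CPM of all 10 globins summed. For HBD the longest was in −Dox replicate 3, and for HBB in +Dox replicate 1. On the TPM scale 5 of the 8 tested genes had groups that did not overlap, HBZ, HBA2, HBE1, HBG1 and HBD, each lower in +Dox, and on the CPM scale 2, HBZ and HBD. Over all genes tested, the TPM of the groups did not overlap in 28.5%, and lay lower in +Dox in 16.7%. HBA2 was at 604.3, 634.5 and 578.9 TPM in −Dox and 563.0, 534.6 and 475.3 TPM in +Dox, HBE1 at 3762, 3975 and 3659 against 3564, 3489 and 3317 TPM, and HBG1 at 6297, 6400 and 6063 against 5818, 5760 and 5824 TPM. No test across genes was run on TPM. In the count fit with offsets for these lengths HBZ remained called, and HBD lost its call (adjusted p = 0.0598 in edgeR). HBA2, HBE1 and HBG1 were not called with or without these offsets.

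**Figure D4:**
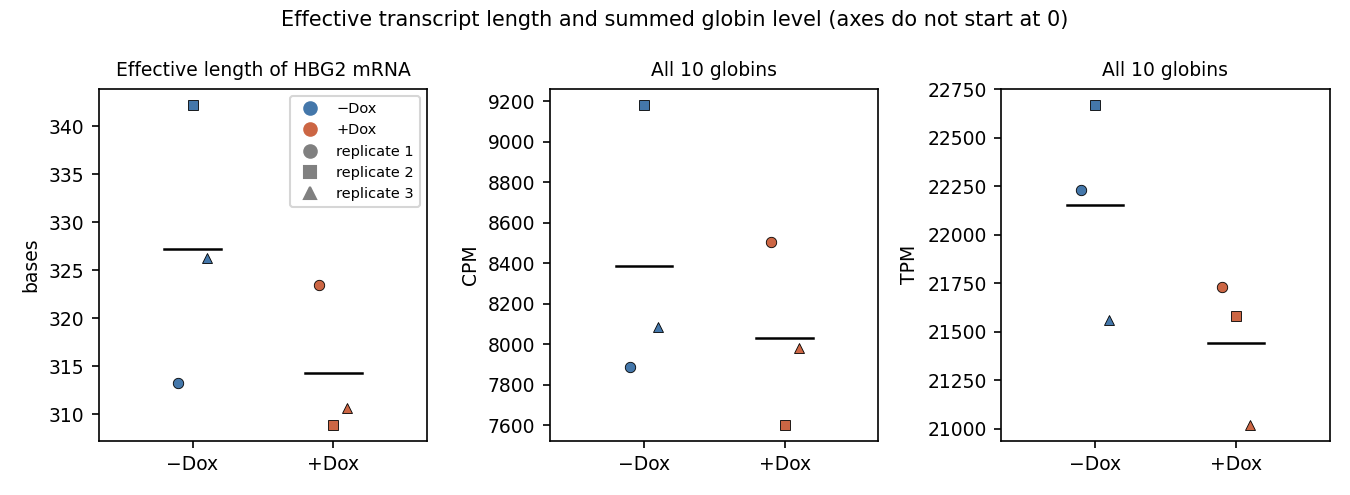
Effective length of HBG2 mRNA in bases, and the sum of all 10 globins in CPM and in TPM, for each −Dox (blue) and +Dox (orange) library with group means as bars, on axes that do not start at 0. −Dox replicate 2 is highest in each panel, at 342.2 bases and 9182 CPM.

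Globin mRNA was read beside the factors known to act on it. AHSP, the chaperone that binds free alpha-globin, was at 2.14, 2.31 and 1.78 CPM in −Dox and 8.23, 6.50 and 6.45 CPM in +Dox. All +Dox libraries were higher, with a log2 fold change of 1.76 (SE 0.146, adjusted p = 6.86e-06 in edgeR). The alpha-globin mRNAs HBA1 and HBA2 summed to a log2 fold change of −0.06. EIF2AK1, the heme-regulated kinase that slows globin translation when heme is short, rose from 268.7 ± 4.81 to 339.0 ± 9.72 CPM (SD, n = 3, adjusted p = 2.84e-04 in edgeR). Of the 12 genes listed for globin chaperoning and translation, 3 rose (25%, against 8.16% of all genes tested) and 2 fell (16.7%, against 7.68%). PPP1R15A (log2 fold change 0.32) rose with AHSP and EIF2AK1, and ATF4 (−0.24) and PPP1R15B (−0.19) fell. USP15, the most abundant of this list by TPM, showed a log2 fold change of 0.01 (adjusted p = 0.933 in edgeR).

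Of 19 transcription factors and cofactors that activate globin genes, 3 rose (15.8%, against 8.16% of all genes tested) and 2 fell (10.5%, against 7.68%). KLF1, which drives adult globin genes, rose from 79.1 ± 7.84 to 108.4 ± 8.16 CPM (SD, n = 3, log2 fold change 0.46, adjusted p = 0.00121 in edgeR). TAL1 (log2 fold change 0.44) and FOXO3 (0.44) also rose, and LMO2 (−0.20), a bridging partner of TAL1, and NFYA (−0.16) fell. GATA1, the main erythroid factor and the most abundant of the list, showed a log2 fold change of 0.12 (adjusted p = 0.113 in edgeR), and NFE2 one of −0.10 (adjusted p = 0.171). The median of this list was 0.02.

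Among 22 genes known to keep gamma-globin silent in adult cells, none rose and 2 fell, MYB (log2 fold change −0.29, adjusted p = 0.00114 in edgeR) and CHD4 (−0.23, adjusted p = 0.00361), with a median of −0.02. The share lower, 9.09%, was close to the 7.68% among all genes tested. BCL11A, the best known of these repressors, was at 0.452 (−Dox) and 0.358 CPM (+Dox) and did not pass. The histone deacetylases HDAC1 and HDAC2, the most abundant of the list, had log2 fold changes of −0.02 and 0.02. Of 6 regulators of the fetal program, 3 fell (50%) and none rose: the chromatin protein HMGA2 (log2 fold change −0.52) and the RNA-binding proteins LIN28A (−0.53) and LIN28B (−0.21). IGF2BP1 (−0.13, adjusted p = 0.064 in edgeR and 0.0174 in DESeq2), IGF2BP2 (−0.02) and IGF2BP3 (0.06) did not pass.

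Of 13 genes whose proteins bind mRNA and act on its stability or decay, 12 were tested, 2 rose (16.7%) and 3 fell (25%). PCBP1, whose rise was set by the induction, is counted among those that rose, here and in the total below. Beside PCBP1, its relative PCBP2 rose by 0.16 on the log2 scale (adjusted p = 0.0244 in edgeR). NCL (−0.38), ZFP36L2 (−0.46) and PABPC4 (−0.18) fell, and the abundant YBX1 (−0.03) and HNRNPK (−0.06) did not pass. Over all 153 listed genes outside the globins, 122 were tested, 23 rose and 16 fell, against 8.16% higher and 7.68% lower among all genes tested. Of these 39 calls, 12 were lost in at least 1 alternative fit, those of HBBP1, LMO2, NFYA, FOXO3, CHD4, LIN28B, ATF4, PPP1R15B, PCBP2, PABPC4, SLC4A1 and ANK1, and 10 with a library left out, these without FOXO3 and CHD4. Another 12 listed genes outside the globins gained a call in at least 1 alternative fit. PCBP2 and ANK1 lost theirs with any library left out, NFYA without any but −Dox replicate 3, ATF4 without any but −Dox replicate 2, and LMO2 without any but replicate 1 of either group. LIN28B lost its call without +Dox replicate 1, PPP1R15B without +Dox replicate 3, SLC4A1 without +Dox replicate 2, and PABPC4 without −Dox replicates 2 or 3 or +Dox replicate 3.

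Most other erythroid genes of K562 on the list rose. Of 15 listed, 13 rose (86.7%, against 8.16% of all genes tested), TFRC fell (log2 fold change −0.34) and GATA1 was not called, with a median log2 fold change of 0.57 against −0.13 for the tested globins. No test of this difference was run. ALAS2, the erythroid enzyme that begins heme synthesis, rose from 30.4 ± 1.43 to 87.7 ± 6.08 CPM (SD, n = 3, adjusted p = 2.50e-08 in edgeR). EPOR (log2 fold change 0.97), the erythropoietin receptor, rose as well. KLF1, TAL1 and GATA1 stand in this list and in that of the activators.

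**Figure D5:**
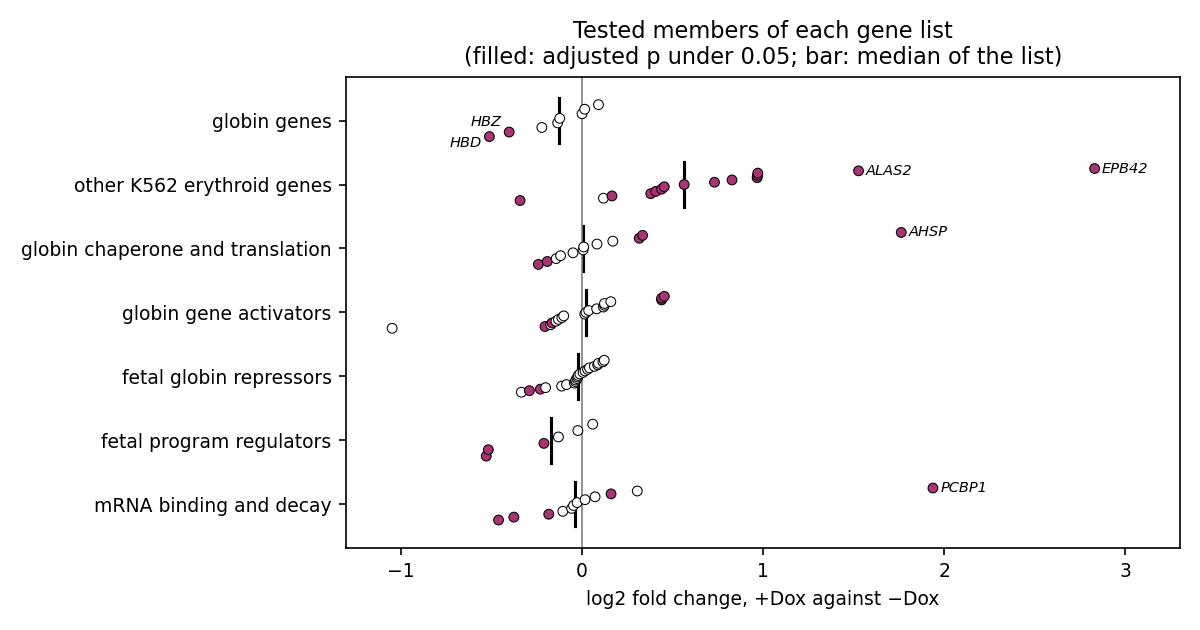
Log2 fold change of the tested members of 7 gene lists, filled where the adjusted p was under 0.05, with the median of each list as a bar. The globins sit between −0.51 (HBD) and 0.09 (HBQ1), and most other erythroid genes lie to the right of 0 up to EPB42 at 2.83.

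The flanking genes were read beside the loci. Next to the alpha locus, NPRL3, whose introns carry the alpha-globin enhancers, rose from 25.5 to 33.8 CPM (log2 fold change 0.40, adjusted p = 0.0012 in edgeR) and FAM234A rose by 0.44 (adjusted p = 0.00247), while 7 of the 9 tested neighbours were not called. The share higher was 22.2%, against 8.16% of all genes tested. LUC7L showed a log2 fold change of 0.03. SNRNP25 was at 8.66, 95.2 and 96.7 CPM in −Dox and 59.1, 32.9 and 58.5 CPM in +Dox, so that −Dox replicate 1 stood far below the rest. Its log2 fold change was −0.41 (adjusted p = 0.688 in edgeR) with all libraries and −0.94 (adjusted p = 0.00207) without −Dox replicate 1, where it was called lower. With genes of any count in the fit it was also called lower with all libraries (−0.42, adjusted p = 6.24e-11 in edgeR). That p-value does not reflect the wide overlap of its groups, and that fit may understate the spread of single genes. Of 12 tested neighbours of the beta locus, 8.33% were higher, against 8.16% of all genes tested. TRIM68 rose (log2 fold change 0.42, adjusted p = 0.00737 in edgeR) and the others were not called, among them OR51B5 (−0.12) and OR51B4 (0.22), the most abundant. OR51B4 was called with DESeq2 (adjusted p = 0.0441), without −Dox replicate 1 (adjusted p = 0.0353 in edgeR) and with genes of any count (0.024, with the same limit as for SNRNP25). The globins outside the loci, CYGB, NGB, MB and ADGB, had too few counts to be tested.

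Markers of other blood cells ranged from no counts to the levels of LYZ, CD3D and GP1BB. Of 12 megakaryocyte markers, summed at 57.0 to 74.3 TPM in −Dox and 66.6 to 70.5 TPM in +Dox, 6 were tested, TUBB1 rose (log2 fold change 0.95) and GP6 fell (−0.75), 16.7% in each direction against 8.16% higher and 7.68% lower among all genes tested. The most abundant was GP1BB at 49.3 and 53.8 TPM, and the platelet genes PF4 and TREML1 had no counts. The 13 granulocyte and monocyte markers summed to 96.5, 110.8 and 134.0 TPM in −Dox and 75.4, 79.7 and 87.5 TPM in +Dox, nearly all of it LYZ, which fell (log2 fold change −0.47, adjusted p = 0.00837 in edgeR) and was the one called of 5 tested (20%, against 7.68% lower among all genes tested). CTSG had no counts. None of 4 tested lymphocyte markers was called, CD3D was the most abundant at 49.9 and 44.2 TPM, the list summed to 49.2 to 55.1 TPM in −Dox and 36.3 to 60.2 TPM in +Dox, and CD8A, MS4A1 and PAX5 had no counts. The part of these markers in the globin values was not tested.

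The genes whose profile over the 6 libraries lay nearest to that of all globins summed were TRAPPC12, NUDT2, SNF8, TRMO and RHOXF2. Likeness was the root mean square difference of centred log2 CPM, and it lay between 0.0145 for TRAPPC12 and 0.0271 for RHOXF2 among 9282 genes with at least 10 CPM. The profile itself ran from −0.11 in +Dox replicate 2 to 0.16 in −Dox replicate 2, so it follows single libraries more than the groups.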

How the data were processed

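PolyA RNA of 6 K562 libraries was sequenced in paired ends of 150 cycles. Per the labels and methods, the authors quantified transcripts with Salmon 1.10.2. They deposited an effective length, an estimated count and a TPM value per transcript and library, without pooling. The deposited estimated counts are unscaled, and the deposited TPM values are scaled by the authors' Salmon run for effective length to a fixed sum. The processing notes name the build hg38. The index, strand and bias settings are not given in the sources used here, so reads of opposite strands may not be separated.

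Identifiers were matched to GENCODE 44. Of 252045 transcripts, 251612 matched and 433 (0.125% to 0.138% of counts) did not. Counts were summed for each gene and rounded. Those whose mean count exceeded 10 entered edgeR 4.0.16 in R 4.3.3 (TMM, glmQLFit, glmQLFTest, two-sided, Benjamini-Hochberg). Standard errors (SE) are log2 fold changes over the root of F. DESeq2 1.42.0 served as an alternative beside other scalings, filters, length offsets, a replicate term and the omission of each library. Sums of copies were fitted in place of the single genes, and shares were compared by exact permutation. Replicates differed by a mean chi-square of 8.16 to 17.5 per gene, more than counting error alone would give. The value was taken on estimated counts, which the division of reads by Salmon can move. It does not show that the replicates were separate cultures. The fit was checked on simulated data of 20696 genes. It called 62 of 100 genes given a log2 fold change of 1 in either direction and 93 of 100 given 2. In the same single run, 8 unchanged genes were called. Tables and figures were made with Python 3.11.15 and matplotlib 3.10.9.

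Members and lists were chosen with earlier results of these data known. Named are all members, sums and PCBP1, every gene of lists of up to 6, otherwise up to 5 called genes by p and the 2 most abundant by TPM, and the 5 genes nearest in profile. BCL11A, EPB42 and the genes that share exons with globins were named after their values were seen. Some members of the erythroid list under this rule are not reported here.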

Additional observations from a re-analysis of the deposited data

How the results depend on the processing

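HBZ was called lower in all 12 alternatives, with log2 fold changes from −0.47 to −0.31, and HBD in 11 of 12. With the transcript length offset, the globins called numbered 1 in place of 2, since HBD (log2 fold change −0.49) was not called. Of all genes, 1882 passed in place of 3333. Leaving out 1 library gave 2 to 3 globins. Log2 fold changes near 0 changed sign. HBA1 was −0.007 with DESeq2 and with RLE size factors, −0.006 where genes needed a summed count above 10, −0.002 without a count filter, and −0.066 to 0.102 with 1 library left out. With 1 library left out, HBQ1 lay between −0.013 and 0.178, HBG2 between −0.023 and 0.068, the sum of HBA1 and HBA2 between −0.136 and 0.038, the sum of HBG1 and HBG2 between −0.077 and 0.020, the beta total between −0.099 and 0.004, and the difference in the HBD-204 share between −6.38 and 5.73 points. Without −Dox replicate 2 and without +Dox replicate 1, in turn, HBE1 was −0.057 and −0.185, and HBA2 −0.126 and −0.318. HBG1 ranged from −0.163, without −Dox replicate 1, to −0.058, without −Dox replicate 2. The sum of HBG1 and HBG2 was 0.012 with the length offset. The cause was not tested. Of these log2 fold changes from HBA1 to the gamma sum, that of HBA2 without +Dox replicate 1 passed the test and the others did not. The shares of HBZ, HBE1, HBA2 and HBG2 kept their direction in every alternative run. Replicate numbers did not pair the libraries (correlations of deviations −0.079, −0.23 and 0.025), and the replicate block gave 2 called globins and 2490 called genes. The sums with overlapping genes were added after seeing the data. HBB and HBM had too few counts to compare.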
